A study of Rattus norvegicus with 12 samples.

Results

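A set of 61 genes was at least 2 times as high with THZ1 alone as at baseline and near its baseline level with phenylephrine (PE). The question was whether the higher level with THZ1 was also present in cultures that received both THZ1 and PE. In direction it was for nearly the whole set, since 60 of the 61 genes had a higher mean with PE + THZ1 than with PE. The mean was at least 2 times that with PE in 40 of the 61, and in 2.70% of all genes with a mean of at least 20. Of the 61 genes, 58 passed the test of a higher level with PE + THZ1 than with PE. Over all genes, 28.0% were called higher, or 49.5% with equal library totals. The remaining gene with a lower mean, ENSRNOG00000038931, did not pass the test. The 61 genes out of 15920 in the deposited table were chosen by group means of the normalized count, which is the number of reads on a gene divided by a size factor for its library. The rule asked for a mean of at least 20 over the 12 libraries, which 13350 genes had, a mean with THZ1 at least 2 times that at baseline, and a mean with PE between 0.67 and 1.5 times that at baseline. Of 94 genes that met the first 2 conditions, 18 were above the upper bound for PE and 15 under the lower bound. All 4 groups therefore had a part in the choice, PE + THZ1 only through the minimum mean. The ratios of THZ1 and of PE to baseline are given as a description with no test.

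RNA-seq was performed in cultures of neonatal rat ventricular myocytes (NRVM) in 4 groups of 3 libraries each. The cells came from hearts of Sprague Dawley pups at postnatal day 2 to 3. They were preplated and exposed to BrdU to deplete other cells, and kept without serum before treatment. Baseline cultures received vehicle, the second group THZ1 at 10 nM, the third PE at 100 µM, and the fourth both agents at these doses. By the methods, the inhibitor or its vehicle was added 3 h before PE. Treatment lasted 48 h by the labels, whereas the names of 6 columns of the table, those of PE and PE + THZ1, give 24 h. Each library held between 30.5 M and 45.9 M reads counted on genes. Baseline replicate 2 lay farther from the other libraries of its group than any other library did, at a distance of 46.6 in log2 units over all genes, against 34.1 to 40.7 elsewhere. Genes carry Ensembl identifiers in the table but no symbols, and the annotation at hand held 0 of these identifiers. The genes are therefore described by their levels, with 3 identifiers printed, no sequence or genome position could be given, and the identity of the myocytes could not be checked against marker genes.

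PE is an agonist of the α1-adrenergic receptor and drives hypertrophic growth and a stress program of gene expression in cultured cardiomyocytes. THZ1 binds covalently to CDK7, a kinase of the general transcription factor TFIIH, and also to CDK12 and CDK13. These kinases phosphorylate the C-terminal domain of RNA polymerase II, a step in the passage from initiation to elongation of transcripts, so that their inhibition is known mainly for lowering transcripts.

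Most of the 61 genes were expressed at a low level. The mean over the 12 libraries was under 50 normalized counts for 26 genes, from 50 to 100 for 16, from 100 to 500 for 13 and at least 500 for 6. At baseline the group means ran from 8.0 to 1869 with a median of 28.2, and with THZ1 alone from 26.2 to 4217 with a median of 102. With PE the median was 33.9 (5.44 to 2484), and with PE + THZ1 it was 86.0 (26.9 to 4156). In cultures such as these a change in the cells present and a change in RNA per cell cannot be told apart.

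The summed level of the 61 genes separated the libraries with THZ1 from those without it. For THZ1 alone, baseline and PE the rule of choice brings this about. The summed level leans most on the genes with the highest levels, with means of up to 3181 over the 12 libraries. It was 8267, 9055 and 8079 normalized counts in the baseline libraries and 9015, 8834 and 8753 with PE. With THZ1 alone it was 20362, 21608 and 21334, and with PE + THZ1 19742, 19578 and 18569. The PE + THZ1 libraries, which took part in the choice only through the minimum mean, all lay above every PE library and overlapped with none. The genes made up between 0.0539% and 0.0639% of all normalized counts in the 6 libraries with THZ1, and between 0.0205% and 0.0253% in the other 6.

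**Figure D1:**
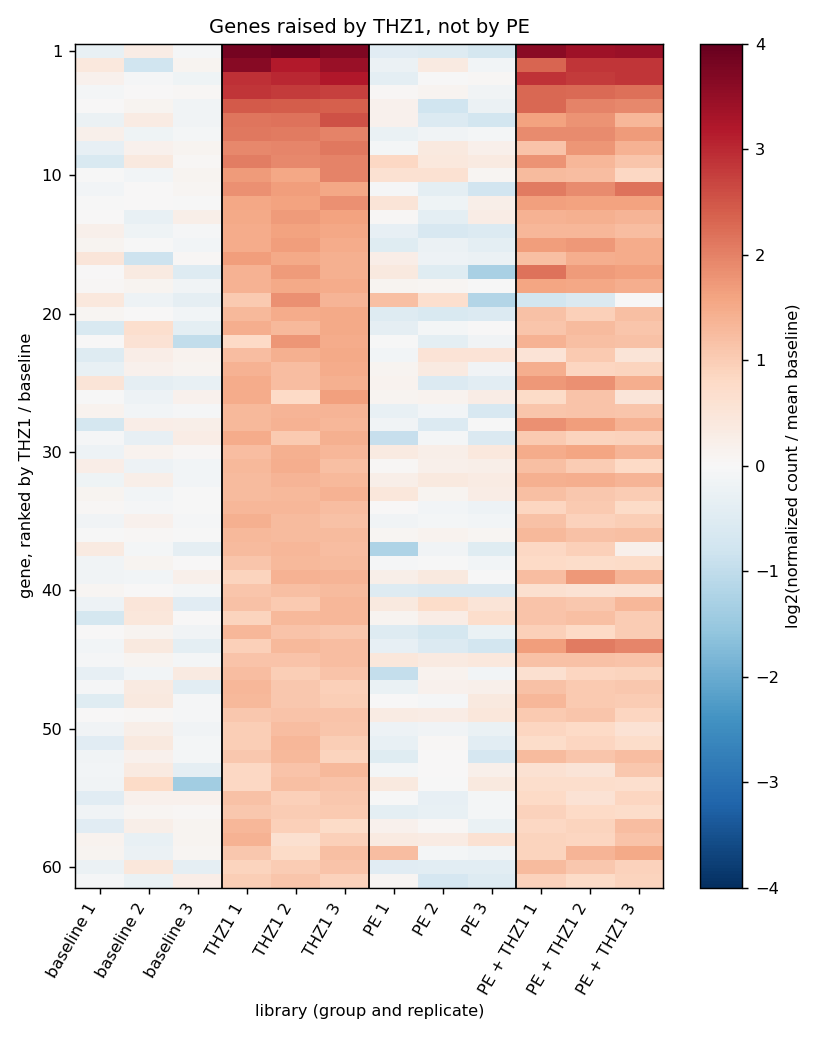
Normalized counts of the 61 genes (rows, ranked by the ratio of THZ1 to baseline) in each of the 12 libraries (columns), as log2 of the ratio to the gene's baseline mean. The 3 PE + THZ1 columns are red for nearly every row, as are the 3 THZ1 columns that chose the genes, whereas the PE columns are pale, and ENSRNOG00000038931, at rank 19, is blue to white in PE + THZ1.

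The ratio of THZ1 to baseline that chose the genes had a median of 2.51 (quartiles 2.19 and 2.91). It reached 4 for 8 genes and was under 2.5 for 30. In each of the 61 genes, every THZ1 library was above every baseline library, which held for 28.6% of all genes with a mean of at least 20, but this contrast chose the genes. The 13 genes with a ratio of at least 3 were all low, with means over the 12 libraries from 22.7 to 88.6 normalized counts. The ratio of PE to baseline had a median of 0.963 (0.679 to 1.47), with 28 genes above 1 and 33 under it. Within these bounds 6 genes still had every PE library above every baseline library, and 7 had every PE library under (background 32.3% and 26.6%). Just inside the threshold for THZ1 lay genes with ratios of 2.02, 2.03 and 2.04, and just outside it 1.99, 1.99 and 1.98. Near the lower bound for PE the ratios were 0.679, 0.679 and 0.681 inside and 0.666, 0.660 and 0.641 outside, and near the upper bound 1.47, 1.46 and 1.45 inside and 1.56, 1.57 and 1.60 outside. Near the minimum mean the values were 20.3, 21.4 and 21.7 inside and 19.97, 18.1 and 17.8 outside.

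The ratio was also read in libraries that had not chosen the genes. With baseline and THZ1 replicate 1 set aside, 74 genes met the rule in the other libraries, and the ratio of the pair set aside was above 1 for 74 and at least 2 for 47 of them, with a median of 2.25. For replicate 2, 82 genes met the rule, of which 79 were above 1 and 43 at least 2 in the pair set aside (median 2.05). For replicate 3 the numbers were 63, 63 and 46 (median 2.49). Of all genes that passed the minimum mean, 1.26%, 1.03% and 1.49% had a ratio of at least 2 in these 3 pairs. The lists shared 51, 53 and 51 genes with the set described here.

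The level with THZ1 was then compared between cultures that both received PE. The change itself uses no baseline library and no library with THZ1 alone, but these libraries share in the variance estimate of the test. With only the PE and PE + THZ1 libraries in the limma fit, 58 of the 61 genes were called higher and 0 lower. The change is also not independent of the choice. The PE libraries had entered it through the bounds on PE, and the PE + THZ1 libraries through the minimum mean. With PE + THZ1 the test called 58 of the 61 genes higher than with PE and called 0 of them lower (limma on log2(normalized count + 1), two-sided, Benjamini-Hochberg adjusted p under 0.05 over all 15920 genes). Lower calls were 0 also at an unadjusted limma p under 0.05, and at the adjusted threshold with edgeR and with DESeq2. Without PE replicate 3, limma called 1 of the 61 genes lower. Over all genes, 28.0% were higher and 28.4% lower, and among genes with a mean of at least 20 it was 31.0% and 32.4%. The median log2 change of the 61 genes was 1.17, with a median standard error of 0.18, against 0.01 over all genes of the table. A log2 change of at least 1 together with the call was found for 38 of the 61 genes, and for 2.65% of genes with a mean of at least 20. The smallest change among the 58 was 0.53. By the ratio of group means, 40 of the 61 genes were at 2 or more times their level with PE, as were 2.70% of genes with a mean of at least 20. With the mean taken over the 9 libraries other than PE + THZ1, 4 of the 61 genes fell short of 20. Of the remaining 57 genes, 54 were called higher and 0 lower by limma, with a median log2 change of 1.13. Every PE + THZ1 library was above every PE library in 58 of the 61 genes, which held for 35.0% of genes with a mean of at least 20.

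The PE + THZ1 mean was also read over a PE library that had no part in the choice, with the minimum mean again taken without PE + THZ1. With PE replicate 1 set aside 54 genes met the rule, and PE + THZ1 was above that library for 53 of them and at least 2 times as high for 36, against 3.06% of all genes with the minimum mean. With replicate 2 set aside the numbers were 56, 55 and 36 (background 2.74%), and with replicate 3 they were 54, 54 and 37 (background 3.60%). The median ratios were 2.27, 2.28 and 2.31. Both of these readings were added after the data had been seen, and no test is given for the second.

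The shares of genes called depend on how libraries are scaled, because the normalized counts of a library summed to 33.4 M to 34.7 M with THZ1 and to 35.8 M to 40.5 M without it. With equal library totals the median log2 change over all genes moved from 0.01 to 0.27, and 49.5% of all genes were called higher, 77.4% of the calls in place of 49.6%. In that scaling 59 of the 61 genes were called higher and 0 lower, with a median log2 change of 1.42. Neither the labels nor the methods say whether the libraries of a group came from separate cell preparations, so that the p-values measure the spread between these libraries, which may be technical.

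**Figure D2:**
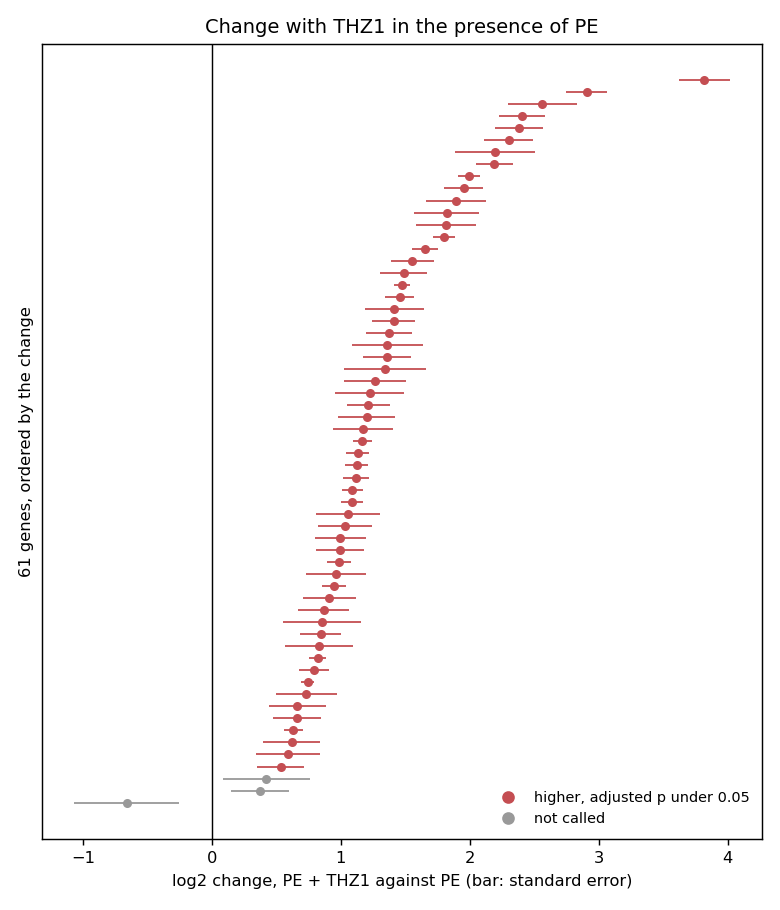
Log2 change (points) with its standard error (bars) of PE + THZ1 against PE for each of the 61 genes, ordered by the change. The 58 genes in red were called higher and run from 0.53 to 3.82, and the 3 in gray were not called.

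ENSRNOG00000014226 had the largest ratio of THZ1 to baseline. Its normalized counts were 6.45, 9.83 and 7.72 in the baseline libraries, 113, 122 and 106 with THZ1 alone, 5.83, 5.57 and 4.90 with PE, and 98.5, 83.7 and 87.3 with PE + THZ1. The 6 libraries with THZ1 did not overlap with the other 6, though the ratio of THZ1 to baseline had chosen the gene. Its mean with PE was 0.679 of that at baseline, near the lower bound of the rule, and every PE library was under every baseline library. The log2 change between PE + THZ1 and PE was 3.82 with a standard error of 0.20 (adjusted p = 1.3e-11, limma), and no gene of the set had a larger one. As few as 5 reads lay behind each PE value, so that the size of this change is known less well than its direction, and it was 3.18 with a pseudocount of 5.

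ENSRNOG00000036700 came second by the ratio. It was at 12.9, 5.46 and 10.3 normalized counts at baseline, 119.7, 86.4 and 105 with THZ1 alone, 8.17, 12.3 and 8.82 with PE, and 48.3, 69.3 and 70.0 with PE + THZ1. Its change between PE + THZ1 and PE was 2.56 on the log2 scale (standard error 0.27, adjusted p = 1.7e-07 from limma). With PE + THZ1 its mean was 0.604 of that with THZ1 alone, and the libraries of both groups did not overlap. The next 3 genes by the ratio had 8.31, 6.94 and 5.35 times their baseline mean with THZ1 alone and 7.21, 4.76 and 4.19 times with PE + THZ1.

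The 6 genes with a mean of at least 500 had the most reads behind their values. The coefficient of variation between their libraries ran from 1.39% to 10.8% with PE + THZ1, against a median of 9.20% over the 61 genes and of 4.50% over all genes with a mean of at least 20. The gene with the highest level was at 1827, 2011 and 1769.6 normalized counts at baseline, 4097, 4154 and 4400.0 with THZ1 alone, 2538, 2412 and 2502 with PE, and 4179, 4199 and 4089.8 with PE + THZ1. Its PE libraries lay above those at baseline, within the bound of the rule, and its log2 change between PE + THZ1 and PE was 0.74 (standard error 0.05, adjusted p = 3.3e-10 from limma). The second highest had 797, 832 and 701 at baseline, 2023, 2218 and 2174 with THZ1 alone, 839, 814 and 768 with PE, and 2319, 2269 and 2134 with PE + THZ1. Here the levels at baseline and with PE overlapped, as did those of both groups with THZ1, and the change between PE + THZ1 and PE was 1.47 (standard error 0.06, adjusted p = 1.1e-12 from limma). Over these 6 genes the ratio of PE + THZ1 to PE ran from 1.67 to 3.48.

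**Figure D3:**
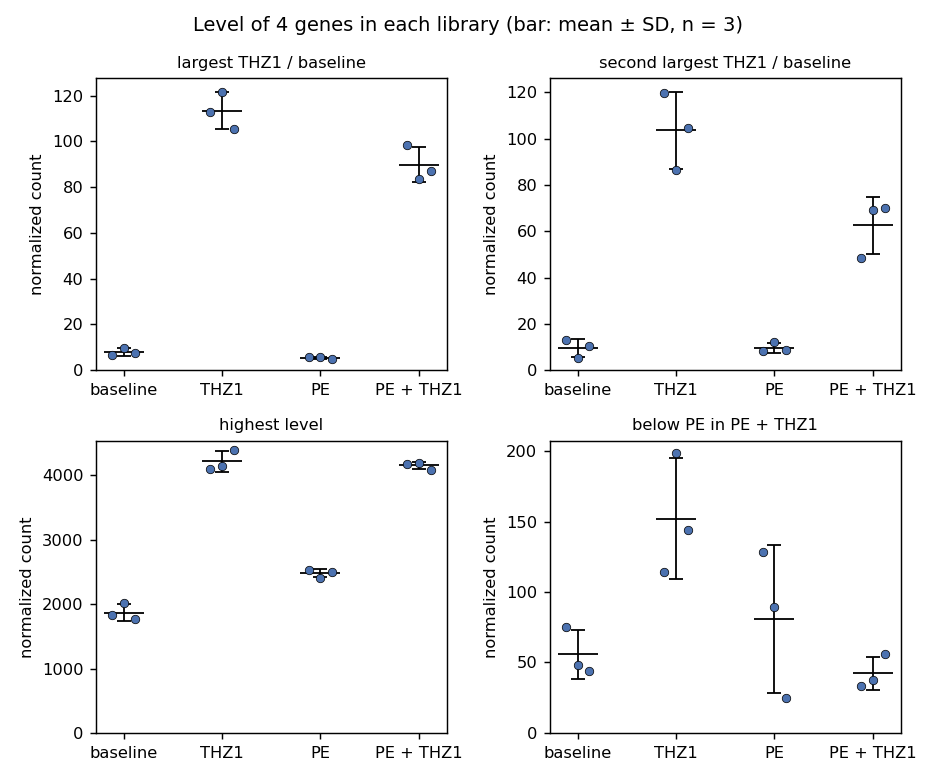
Normalized counts (vertical axes from 0, linear) in each library of 4 genes of the set, with the mean and SD of each group of 3 as bars. ENSRNOG00000014226 (upper left), ENSRNOG00000036700 (upper right) and the gene with the highest level (lower left) are higher in both groups with THZ1, whereas ENSRNOG00000038931 (lower right) has a mean of 42.3 with PE + THZ1 against 152 with THZ1 alone.

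The 3 genes that were not called had log2 changes of -0.66, 0.37 and 0.42. ENSRNOG00000038931, which is named because it was the exception after its values were seen, was at 75.3, 48.0 and 43.8 normalized counts at baseline, 114, 198 and 144 with THZ1 alone, 128, 89.2 and 24.5 with PE, and 33.5, 37.5 and 55.8 with PE + THZ1. The PE libraries spread widely and overlapped with those of PE + THZ1, while every THZ1 library was above every PE + THZ1 library. The change between PE + THZ1 and PE was -0.66 (standard error 0.41, adjusted p = 0.18 from limma). It rested on PE replicates 1 and 3. Without replicate 3 it was -1.35 and passed the test (adjusted p = 0.000447 from limma), and without replicate 1 it was -0.18 (adjusted p = 0.726 from limma). The second of the 3 genes was at 32.7, 52.4 and 51.9 normalized counts with PE and 52.2, 74.1 and 50.8 with PE + THZ1, so that the libraries overlapped. The third was at 29.2, 22.3 and 29.4 with PE and 36.4, 36.6 and 35.5 with PE + THZ1, with no overlap.

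Against baseline, the same libraries of PE + THZ1 were at 2 or more times the mean for 42 of the 61 genes, where 1.05% of genes with a mean of at least 20 reached this ratio. The baseline libraries had chosen the genes as low, so that this count is a description with no test. Of the other 19 genes, 18 were between 1.5 and 2 times baseline, and ENSRNOG00000038931 was at 0.759. The median ratio was 2.19 (quartiles 1.90 and 2.78), against 1.00 over all genes with a mean of at least 20. In 58 genes every PE + THZ1 library was above every baseline library (background 29.3%). The 3 PE + THZ1 libraries gave like values one by one, with median ratios to baseline of 2.30, 2.23 and 2.19.

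**Figure D4:**
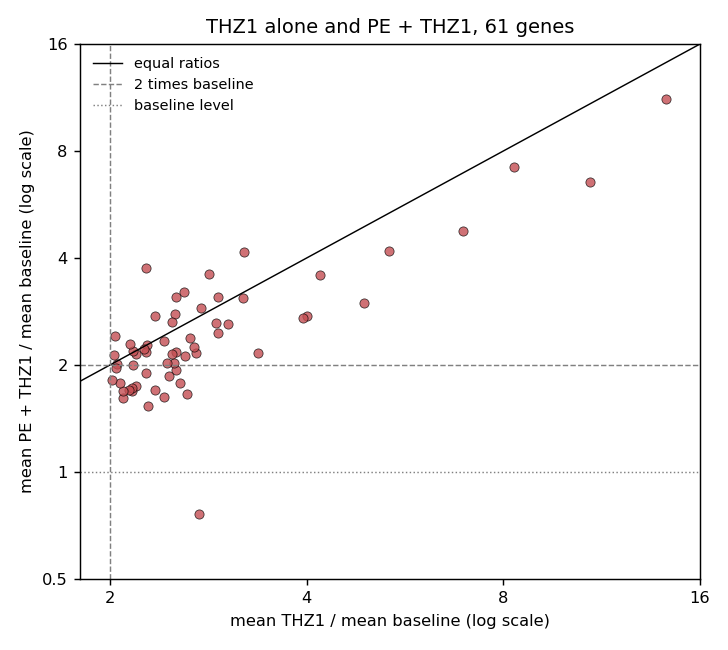
Mean with PE + THZ1 over mean at baseline (vertical axis, log scale) against mean with THZ1 alone over mean at baseline (horizontal axis, log scale) for the 61 genes, which share the baseline mean on both axes. The line marks equal ratios, 47 genes lie under it and 14 above, and 42 lie on or above the dashed line at 2 times baseline.

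PE + THZ1 was also compared with THZ1 alone. For 36 genes the mean with PE + THZ1 was between 0.8 and 1.25 times that with THZ1 alone. The share of all genes within these bounds was not taken. The median ratio was 0.858 over the 61 and 0.994 over all genes with a mean of at least 20. The ratio was under 1 for 47 of the 61 genes. In 31 genes every PE + THZ1 library was under every THZ1 library (background 24.4%), and in 3 every one was above (background 22.7%). The genes had been chosen for a high mean with THZ1 alone, which can by itself place the other group lower. The size of this effect was not estimated, and no test is given. Among the 13 genes with a THZ1 ratio of at least 3, 12 were lower with PE + THZ1 (median 0.784), and among the other 48 it was 35 (median 0.880). The largest ratio was 1.65, in a gene with 126, 161 and 154 normalized counts with THZ1 alone and 205, 274 and 251 with PE + THZ1. This gene was at 60.2, 85.2 and 48.9 at baseline and 51.3, 44.6 and 39.2 with PE.

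The step from baseline to THZ1 and the step from PE to PE + THZ1 share no library. On the log2 scale of the group means the second was smaller than the first in 42 genes and larger in 19, and the median difference was -0.13 (quartiles -0.43 and 0.03). As the first step chose the genes, this difference is not tested either. For the 18 genes that THZ1 alone placed at 2 or more times baseline and PE above 1.5 times, the median ratio of PE + THZ1 to baseline was 2.75, and 13 of the 18 reached 2. For the 15 that PE placed under 0.67 times baseline it was 1.82, and 7 of the 15 reached 2. These values stand beside the 2.19 of the 61 genes, and their differences were not tested.

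The authors' table also has an unnamed last column with a number from 1 to 6 for each gene. It was read as a cluster number, because the paper describes 6 clusters of row-scaled normalized counts. The numbers need not be those of the paper's heat map. All 61 genes are in the cluster numbered 1 in the table, which holds 5024 genes or 31.6% of the table. A clustering of the same libraries gives no separate evidence, and the profile of the whole cluster was not examined.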

How the data were processed

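RNA-seq was measured in 12 NRVM libraries, assigned to groups by their titles. By the methods, the authors aligned reads with TopHat2 2.1.1 to rn5, used htseq-count with its reverse strand setting, and scaled libraries by DESeq2 size factors. The deposited values are thus a signal that is never negative, normalized counts per gene. A further deposited column of other content has no name and was read as cluster numbers. Reads were recovered as whole multiples of 1 step per library (100% of values within 0.01 of a read). Pairs of replicates differed by more than counting noise, with a mean squared difference of at least 1.99 times the counting variance per gene. Group means and ratios used Python 3.11.15, pandas 2.3.3 and numpy 2.4.6. PE + THZ1 was tested against PE by limma 3.58.1 (R 4.3.3), with log2(normalized count + 1) as the response, a trended prior variance, all 12 libraries, no filter, and Benjamini-Hochberg adjustment at 0.05. The pseudocount of 1 makes the log2 changes of low genes too small. The fit was also run on simulated reads, with the same dispersion for every gene and few genes changed. That setting differs from these data, so the run checks the code and not the error rate here. edgeR 4.0.16 (quasi-likelihood) and DESeq2 1.42.0 (Wald) on recovered reads were alternatives. The genes, lists and comparisons were chosen with earlier results of these data known. Genes with a symbol were to be named where first by the ratio of THZ1 to baseline, by level or by change, or in lists of pathways and cell type markers, and genes without one only where in the first 10 by that ratio. For want of symbols the lists and a search of promoter motifs were not run, and the first 2 identifiers by the ratio were printed. Figures were drawn with matplotlib 3.10.9.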

Additional observations from a re-analysis of the deposited data

How the results depend on the processing

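The choice of genes depends on scaling and on the minimum mean. With equal library totals 118 genes met the rule (55 of the 61 among them), of which 76 were at 2 or more times baseline with PE + THZ1. With a minimum mean of 50 it was 35 and 24, and with none 154 and 101. TMM gave 58 and 39, and group medians 68 and 42. Leaving out 1 library gave 59 to 84 genes and 38 to 55 at 2 or more times baseline, the highest of both without baseline replicate 2. When chosen again without that library, which was decided after seeing the data, 52 genes were shared, and limma called 78 of the 84 higher and 0 lower in PE + THZ1 against PE. With the minimum mean taken without PE + THZ1, also added after seeing the data, 57 genes were left, of which 38 were at 2 or more times baseline. Of the 61 genes, the number called higher was 57 with edgeR, 55 with DESeq2, and 53 to 58 with 1 library left out. Among genes with a mean of at least 50 it was 33 of the 35 tested. The number of all genes changed between PE + THZ1 and PE was 8971, with 8114 to 10180 under other settings and 8051 to 9577 with 1 library left out. The replicate number as a block gave 9096 genes and 57 of the 61. No label ties same-numbered libraries together, and the Pearson r of their deviations, taken across genes, averaged 0.028 for 18 pairs (-0.043 to 0.097). For 36 other pairs it averaged -0.014 (-0.133 to 0.083). Deviations from a group mean offset each other, so that both averages are tied and the second is no separate yardstick. Of the 12 libraries, 10 correlated best with their own number. How many would do so without a pairing was not estimated, and a pairing was not tested. The log2 changes of the 3 identifiers kept their sign under all settings tried. For low genes only a few reads lie behind the values without THZ1, down to 5 in a library, so that their fold changes are imprecise.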
